A study of Mus musculus with 6 samples.

Results

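The carbonic anhydrase genes described here are Car2, Car3, Car4, Car5b, Car7, Car8, Car9, Car11, Car12 and Car13, which make 10 of the 20659 genes named on the array. They were taken as a listed family, with every probe whose RefSeq transcript belongs to them, and the family was selected on its log2 differences between the 2 groups of these same arrays. In all 12 probes matched, and 8 of the 10 genes had a probe that could be compared, out of 15535 genes compared on the array. RNA came from MC3T3-E1, a mouse pre-osteoblast line, after 3 days in 24-well plates on a metal scaffold. The FeMnSi group (n = 3) grew on the original scaffold, made of iron, manganese and silicon. The De-HA group (n = 3) grew on a scaffold that had been dealloyed, that is, treated so that part of the alloy's metal dissolves, and covered with a bioactive coating. Every sample had its own 1-colour Agilent mouse array. There was no group grown without a scaffold, and the labels do not say whether the 3 samples of a group were separate cultures, so the errors and p-values cover the spread among these arrays alone, and that spread may be technical.

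Carbonic anhydrases are zinc enzymes that interconvert carbon dioxide and water with bicarbonate and a proton. Members differ in where they act: Car2, Car3, Car7 and Car13 in the cytosol, Car5b in mitochondria, and Car4, Car9 and Car12 at the outer face of the plasma membrane. Car8 and Car11 are related proteins that lack the catalytic activity. In bone the family is best known through CA II, with which osteoclasts make the acid that dissolves mineral. Osteoblasts face the reverse task, since laying down mineral releases protons that have to be carried away. CA IX, the product of Car9, is a classic product of the response to low oxygen.

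Among the listed members, the transcripts of the 3 listed membrane enzymes differed on De-HA, and not all in the same direction. The measured cytosolic, mitochondrial and inactive members did not pass the threshold. This split covers the listed members alone and is not a rule for membrane carbonic anhydrases in general. The other tested genes of the family, Car1, Car14 and Car15, did not pass. Car9 fell 4.18-fold and Car12 fell 2.41-fold, while Car4 rose 1.61-fold. These 3 of the 8 measured members were past an adjusted p of 0.05 in limma, fitted over all genes, where 10.7% of all genes were called. Of all genes, 4.29% were called lower and 6.46% higher in De-HA. Car9 and Car12 were also past 2-fold, as were 1.27% of all genes. The family was listed with this comparison known, so its values are a description and carry no p-value of their own. Neither Car3 nor Car8 was detected, that is, well above background, on any of the 6 arrays.

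The start regions of these 3 genes are shown because hypoxia response cores, the letters ACGTG or GCGTG to which HIF factors bind, could be looked for beside the values. They are RefSeq sequences of build GRCm38.p6, from 250 bases before to 50 bases after the start, on the strand of the gene, with such cores on either strand in capitals. Car9 lies at chr4:43506776-43507075 (plus strand), Car12 at chr9:66713436-66713735 (plus strand) and Car4 at chr11:84957504-84957803 (plus strand).
Car9: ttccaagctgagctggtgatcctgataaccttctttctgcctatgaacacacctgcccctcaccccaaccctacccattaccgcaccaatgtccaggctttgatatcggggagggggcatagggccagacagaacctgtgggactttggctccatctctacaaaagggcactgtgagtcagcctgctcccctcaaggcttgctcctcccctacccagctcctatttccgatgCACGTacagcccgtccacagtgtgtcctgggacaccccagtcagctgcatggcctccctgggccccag
Car12: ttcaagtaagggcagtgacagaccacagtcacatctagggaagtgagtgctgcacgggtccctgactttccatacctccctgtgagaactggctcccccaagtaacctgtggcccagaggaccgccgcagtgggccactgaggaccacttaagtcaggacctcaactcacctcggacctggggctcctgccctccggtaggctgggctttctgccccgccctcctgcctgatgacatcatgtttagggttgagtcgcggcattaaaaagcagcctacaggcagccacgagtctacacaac
Car4: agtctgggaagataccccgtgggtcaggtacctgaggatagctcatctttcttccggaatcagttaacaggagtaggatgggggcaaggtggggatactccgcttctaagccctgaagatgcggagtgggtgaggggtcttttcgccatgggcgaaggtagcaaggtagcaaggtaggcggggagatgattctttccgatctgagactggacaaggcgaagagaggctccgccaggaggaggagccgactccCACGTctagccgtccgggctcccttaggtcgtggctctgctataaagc
The Car9 window held 1 such core, on the minus strand with its first base 18 bases upstream of the start base, and an AP-1 site (TGACTCA, minus strand) 77 bases upstream, which 5.2% of all 32851 windows of this length also held. The Car4 window held 1 core, on the minus strand and beginning 2 bases after the start base. The Car12 window held no hypoxia core and 1 GC box (GGGCGG, minus strand) 35 bases upstream. At least 1 hypoxia core stood in 43.8% of all windows, and a GC box in 35.7%. The 5 searches, the last for the TATA box TATAAA (13.6% of windows; 42 bases after the start of Car4), covered both strands, and no matches overlapped in these 3 windows. Of the members, 6 had sequences, in 9 windows, and 7 of these windows held a core, beside 43.8% of all windows. By gene, 5 of the 6 held a core in some window, a count for which no share over all genes was computed. Among these were Car5b, with 5 copies of GCGTG, and Car7 and Car11, none of which passed the threshold. A match in letters is not a bound site.

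Car9 encodes CA IX, a transmembrane enzyme of the cell surface. Its processed signal, a background-subtracted brightness in arbitrary units, was 417, 643 and 518 on FeMnSi 1, 2 and 3. On De-HA 1, 2 and 3 it was 101, 132 and 102. The groups lay far apart: the brightest De-HA array did not reach the dimmest FeMnSi array, and all 6 values were well above background. After shifting each array by its 75th percentile, the log2 level was -2.48 ± 0.16 (SD, n = 3) on De-HA and -0.42 ± 0.25 (SD, n = 3) on FeMnSi. The log2 difference, De-HA minus FeMnSi, was -2.06 ± 0.15 (SE), which ranked 16 of 15535 genes by size. By the scan times in the file headers, De-HA 1, 2 and 3 and FeMnSi 1 were read in 1 scan, called slide 1 here, and FeMnSi 2 and 3 in another. FeMnSi 1 was the lowest FeMnSi array for Car9, and the difference within slide 1, the De-HA mean minus FeMnSi 1, was -1.83. Car9 was past the threshold under all 18 alternative settings, with log2 differences from -2.18 to -1.59.

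Car12 encodes CA XII, also a transmembrane enzyme with its catalytic domain outside the cell. Its signal was 80.6, 114 and 115 on FeMnSi 1, 2 and 3. It was 31.3, 50.5 and 34.0 on De-HA 1, 2 and 3. No De-HA array reached the FeMnSi range, and the De-HA signals were nearer to the detection limit, since the lowest signal well above background on an array ran from 11.8 to 21.8. The log2 level was -4.04 ± 0.32 (SD, n = 3) on De-HA and -2.77 ± 0.22 (SD, n = 3) on FeMnSi, a difference of -1.27 ± 0.19 (SE). Within slide 1 it was -1.02. Car12 missed the threshold in 4 of the 18 settings: slide as a block, slide 1 alone, without De-HA 3 and without FeMnSi 3. Background correction by normexp, which adds an offset of 50 to every signal, gave -0.53, still past the threshold.

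Car4 encodes CA IV, which is held at the outer membrane by a lipid anchor. Its main probe gave 1480.3, 1312 and 972 on De-HA 1, 2 and 3. On FeMnSi 1, 2 and 3 it gave 789, 915 and 876. The De-HA arrays were all brighter, but De-HA 3 exceeded the brightest FeMnSi array by little, and De-HA spread more than FeMnSi. The log2 level was 1.00 ± 0.25 (SD, n = 3) against 0.31 ± 0.038 (SD, n = 3), a difference of 0.69 ± 0.14 (SE), or 0.58 above the median of all genes. The value within slide 1 was 0.73. A second probe of the same transcript, well above background on 3 of the 6 arrays, gave signals of 11.3 to 20.5 with overlapping groups and a difference of 0.31. Within slide 1 this second probe gave -0.15. With the mean of both probes the difference was 0.50 and not past the threshold. Car4 also missed it with slide as a block, on slide 1 alone, with a replicate block and with dim probes unfiltered. Of the 6 fits that leave out 1 array it passed in 2, those without De-HA 3 and without FeMnSi 1.

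**Figure D1:**
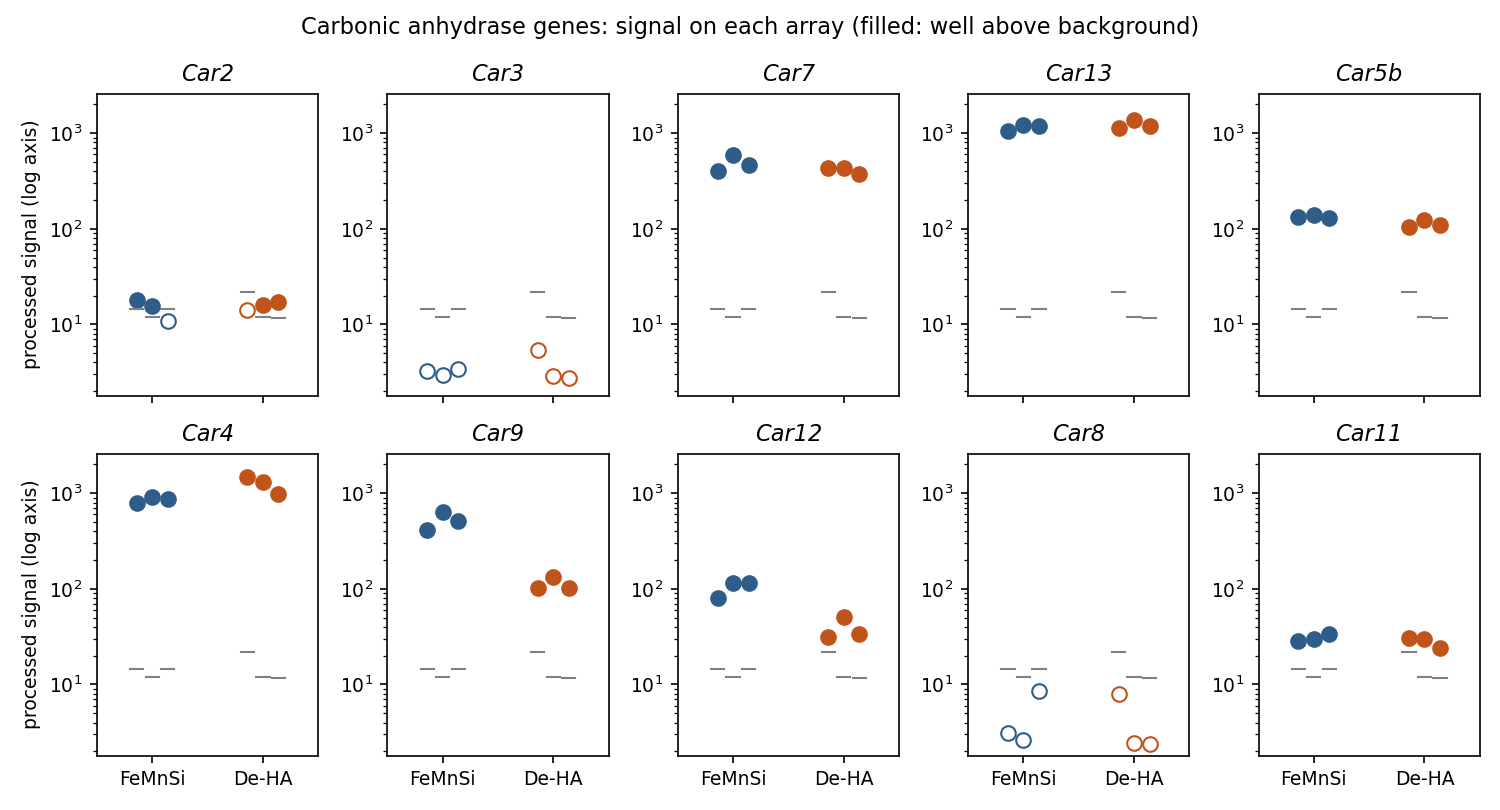
Processed signal (log axis) of each of the 10 genes on each array, FeMnSi in blue and De-HA in orange, arrays 1 to 3 from left to right. Filled points were well above background, open points were not, and grey ticks mark the lowest signal well above background on that array; of several probes the brighter on FeMnSi is shown. Car9 and Car12 are lower and Car4 is higher on every De-HA array, while Car3 and Car8 lie under the ticks on all 6.

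Among the cytosolic enzymes, Car13, a broadly expressed isoform, gave 1146, 1379 and 1184 on the De-HA arrays, in their order 1 to 3. The FeMnSi arrays gave 1051, 1208 and 1191. These unscaled signals overlapped between the groups. After scaling they did not overlap, and the log2 difference was 0.26 ± 0.089 (SE), which did not pass and was 0.16 above the median of all genes. Car13 stayed positive under all 18 alternatives (0.18 to 0.32) and passed under none. Of all genes, 39.1% had groups that did not overlap; of the 8 measured members 4 did, Car4, Car9, Car12 and Car13.

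Car7, an isoform known from the brain, gave 429.5, 429.9 and 375 on the De-HA arrays. Its FeMnSi signals were 397, 593 and 459.6. The groups overlapped, with FeMnSi 2 apart on the high side, and the difference was -0.05 ± 0.13 (SE; 95% interval -0.36 to 0.25).

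Car2, the enzyme of acid-secreting osteoclasts, gave 14.2, 15.8 and 17.2 on the De-HA arrays. Its FeMnSi signals were 18.0, 15.6 and 10.8. It was well above background on 2 of 3 arrays in each group and close to the limit on all 6. The difference was 0.28 ± 0.22 (SE; 95% interval -0.25 to 0.80), and within slide 1 it was -0.12, so its direction was not settled. Car3, an abundant enzyme of muscle and fat with low activity, gave 2.73 to 5.43 over the 6 arrays, and was detected on none of them. Car3, Car2 and Car13 lie beside each other on chromosome 3, with Car1 between Car13 and Car3.

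Car5b, the mitochondrial isoform outside the liver, gave 105, 125 and 109 on the De-HA arrays. Its FeMnSi signals were 132, 138 and 129, all above the De-HA ones. After scaling the groups overlapped, and the difference was -0.08 ± 0.093 (SE; 95% interval -0.30 to 0.14). Of the inactive relatives, Car11 gave 30.3, 29.6 and 24.4 on the De-HA arrays. Its FeMnSi signals were 28.2, 30.2 and 34.0, and the groups overlapped. The difference was 0.03 ± 0.10 (SE; 95% interval -0.21 to 0.27), and it kept its sign in 13 of 18 settings (-0.16 after quantile normalization). Car8, whose product binds the inositol trisphosphate receptor of the endoplasmic reticulum, gave 2.36 to 8.50 by its probes and was not detected. A missing detection says only that the signal lay under the limit of these arrays.

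**Figure D2:**
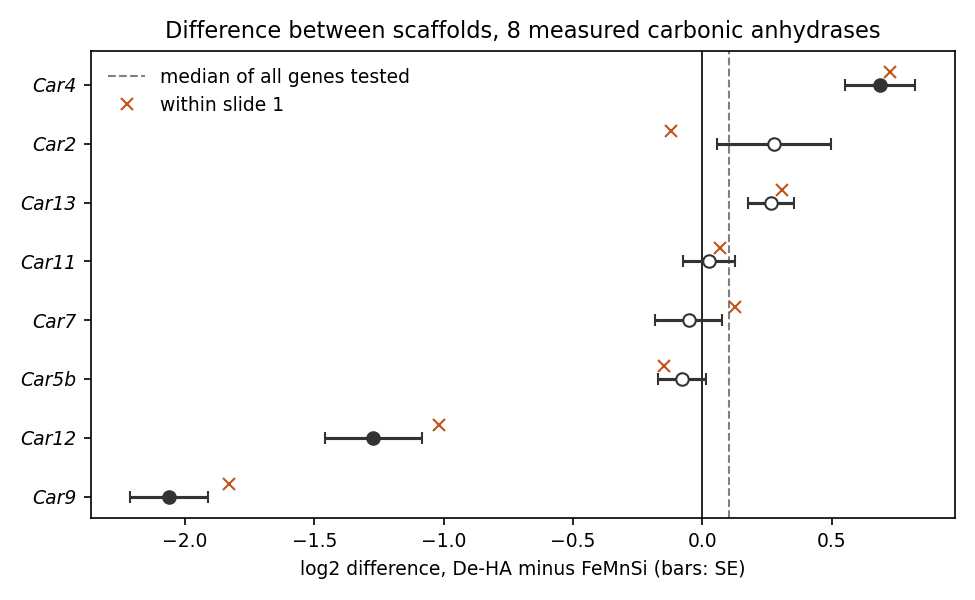
Log2 difference, De-HA minus FeMnSi, of the 8 measured members with its SE (n = 3 a group); filled points were past the threshold of the fit over all genes. Crosses give the value within slide 1 and the dashed line the median of all genes (0.10). Car9 (-2.06), Car12 (-1.27) and Car4 (0.69) stand away from the other 5, which lie between -0.08 and 0.28.

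The median log2 difference of the 8 measured members was -0.01, against 0.10 for all genes; in the authors' deposited matrix the median of all genes was -0.0055. In all, 1669 genes were past the threshold in limma with Benjamini-Hochberg adjustment, 60.1% of them higher in De-HA, a share that was 43.8% after quantile normalization, 37.3% with median scaling and 41.3% in the deposited matrix. The directions of Car9, Car12 and Car4 were the same under each of these. The other 6 genes of the family, Car1, Car5a, Car6, Car10, Car14 and Car15, had no member past the threshold in limma and 0 of the 3 tested at an unadjusted p under 0.05, a level that 33.6% of all genes reached. Car1, the erythrocyte enzyme, gave 0.11 ± 0.12 (SE), Car14 gave 0.17 ± 0.13 and Car15 gave -0.06 ± 0.097. Car5a and Car10 were not detected. Car6, the secreted isoform of saliva, was well above background on FeMnSi 2 and 3 alone, and no fold is given for it.

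Within the De-HA group both Car9 and Car12 had their lowest scaled level on De-HA 1 and their highest on De-HA 2, and within the FeMnSi group both were lowest on FeMnSi 1. Pearson's r of their log2 levels over the 6 arrays was 0.97, and -0.91 between Car9 and Car4; the group difference carries much of each, and no p is given. The genes most like Car9, by the root mean square difference of log2 levels centred over the 6 arrays, included the glutathione transferase gene Gsta3 (0.21), Plxdc1 (0.22) and the fatty acid binding protein gene Fabp4 (0.24), which were measured on all 6 arrays, out of 14774 genes ranked. Atf7ip2 and the histone gene H3c1 also came among the 5 nearest, but on De-HA neither was well above background, so their distance from Car9 is not a measured one. Car12 stood at 0.42 from Car9 on this measure. By the same measure, genes near Car12 included Zdhhc2 (0.14), Inpp5d (0.15), Bard1 (0.16), which acts in DNA repair, and Cdc6 (0.16), which acts in DNA replication; these were chosen after their values were seen.

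**Figure D3:**
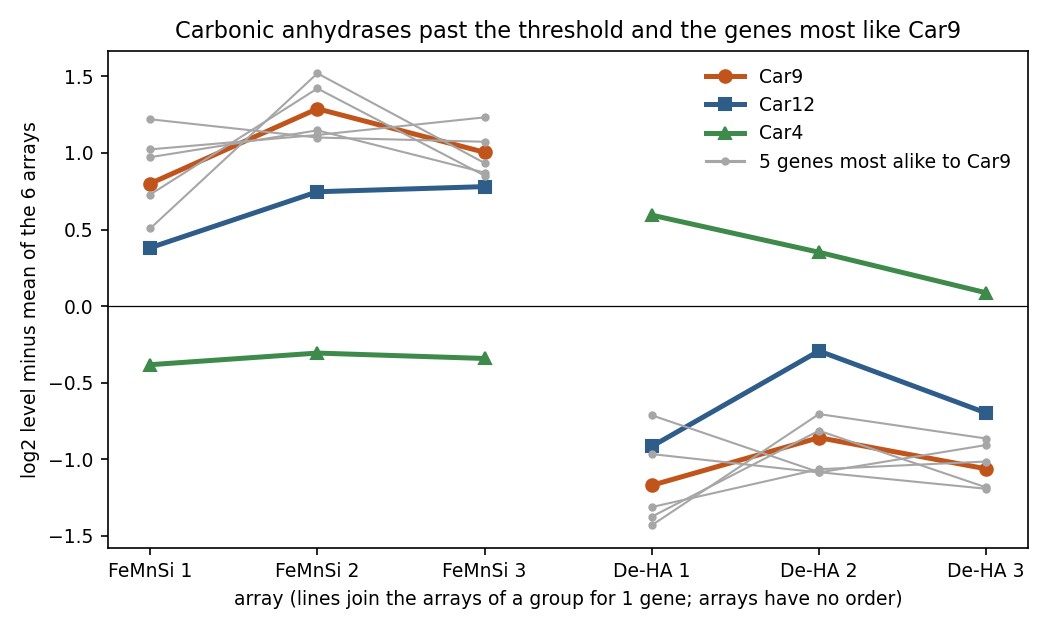
Log2 level minus the gene's mean over the 6 arrays, for Car9 (orange), Car12 (blue), Car4 (green) and the 5 genes most like Car9 (grey; 2 of these, Atf7ip2 and H3c1, were below background on De-HA); lines join the arrays of a group and stop between groups. Car9 runs from 0.80 to 1.29 on FeMnSi and from -1.17 to -0.86 on De-HA, and Car12 follows with a smaller range.

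The partner genes that supply, carry or sense the products of these enzymes were read from lists, 103 genes tested in all with the other carbonic anhydrases and related tissue genes. Of 11 tested bicarbonate transporters 2 rose and 0 fell. Slc4a2, the broadly expressed chloride-bicarbonate exchanger, rose 1.99-fold (log2 difference 0.99 ± 0.23 SE, limma adjusted p = 0.0425, 0.59 within slide 1), but after quantile normalization and in the deposited matrix it gave 0.78 and did not pass. Slc4a1, the exchanger of red cells, rose 1.54-fold (0.62 ± 0.12 SE, limma adjusted p = 0.0294, 0.68 within slide 1), and did not pass with median scaling (0.53). Slc4a2 was higher on all De-HA arrays, at log2 levels of 4.49 to 4.77 against 3.17 to 4.09. The list median was 0.19, and 10.7% of all genes were called.

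Of 11 tested sodium-proton exchangers, their cofactors and the proton channel, 2 rose, where 6.46% of all genes were called higher. Chp1, a calcium-binding cofactor of the exchangers, rose 1.30-fold (0.38 ± 0.081 SE, limma adjusted p = 0.0339, 0.31 within slide 1), though it did not pass after quantile normalization (0.15), in the deposited matrix (0.16), with median scaling (0.30) or with the mean of its probes (0.31). Hvcn1, the voltage-gated proton channel, rose 1.40-fold (0.49 ± 0.11 SE, limma adjusted p = 0.0388, 0.34 within slide 1), and another probe gave 0.42. It did not pass with median scaling (0.40). The list median was 0.16.

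Of 8 tested monocarboxylate transporters and chaperones, which carry lactate together with protons, 0 passed in limma and 1 had an unadjusted p under 0.05, against 33.6% of all genes. The smallest p-values were those of Emb (-0.47, adjusted p = 0.0652) and Slc16a4 (0.19, adjusted p = 0.178), and the median was -0.14. Slc16a3, the lactate exporter induced by low oxygen, gave -0.02 ± 0.082 (SE). Of 4 tested proton-sensing receptors and channels 0 passed, with 2 at an unadjusted p under 0.05 (all genes, 33.6%), Asic1 (0.29, adjusted p = 0.0771) and Gpr132 (0.25, adjusted p = 0.0982). Aqp5 (0.42, adjusted p = 0.166) was the single tested gene of the gas and ammonia channels; 0 had an unadjusted p under 0.05.

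Car9 is a textbook target of the hypoxia-inducible factors, and its fall was read beside theirs. Of 23 other hypoxia-induced genes tested, 1 rose and 1 fell, where 10.7% of all genes were called. The list median was 0.05 against 0.10 for all genes. At an unadjusted p under 0.05 stood 10 of them, 6 higher and 4 lower, beside 33.6% of all genes. Pgk1, a glycolytic enzyme, fell 1.53-fold (-0.62 ± 0.15 SE, limma adjusted p = 0.0432, -0.45 within slide 1). Bnip3, a mitophagy receptor, passed as higher by 0.98 ± 0.19 through its brightest probe, but its 3 probes ran from -0.36 to 0.98, so its direction depends on the probe. The other 8 at that level did not pass. Of these Adm (0.47), Eno1 (0.38), Ldha (0.32), Ddit4 (0.26) and Kdm3a (0.23) were on the higher side, and Vegfa (-0.33), Ero1a (-0.30) and P4ha1 (-0.24) on the lower. The 3 probes of Ldha ran from -0.15 to 0.40, so its direction also depends on the probe. Of the 9 genes of the factor system itself, 2 passed as higher, beside 6.46% of all genes. Vhl, the ubiquitin ligase subunit that removes HIF, gave 0.51 ± 0.10 SE (limma adjusted p = 0.0281, 0.42 within slide 1). It did not pass with median scaling (0.43) or in the deposited matrix (0.34). The other was Epas1, for which the probes gave -1.04 and 0.78 and thus opposite directions. At an unadjusted p under 0.05 stood 5 of the 9, 3 higher and 2 lower, beside 33.6% of all genes. Among these, Hif1a gave -0.36 (adjusted p = 0.0821 in limma, -0.17 within slide 1) and did not pass. Neither did Hif1an (-0.43, limma adjusted p = 0.106) or Egln3 (0.41, limma adjusted p = 0.110). The probes of Egln3 gave -0.46 and 0.41, again in opposite directions.

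Car8 itself was not detected, and of its 3 calcium-release partners Itpr1 rose 1.62-fold (0.69 ± 0.089 SE, limma adjusted p = 0.00963, 0.67 within slide 1). Among all genes, 6.46% were called higher. Car2 belongs with the osteoclast genes of acid and resorption, of which 0 of 10 tested passed and 2 had an unadjusted p under 0.05, against 33.6% of all genes (Snx10, -0.43, adjusted p = 0.133; Traf6, -0.24, adjusted p = 0.142). Over all lists 13 of 103 partner genes were past the threshold, beside 10.7% of all genes. Of these 13, Fabp4 alone passed with slide as a block. That fit takes its differences from De-HA against FeMnSi 1, since no De-HA array was on the other slide. In the 6 fits that leave out 1 array, 11 of them passed in at most 2, 1 of these being in each case the fit without FeMnSi 1.

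**Figure D4:**
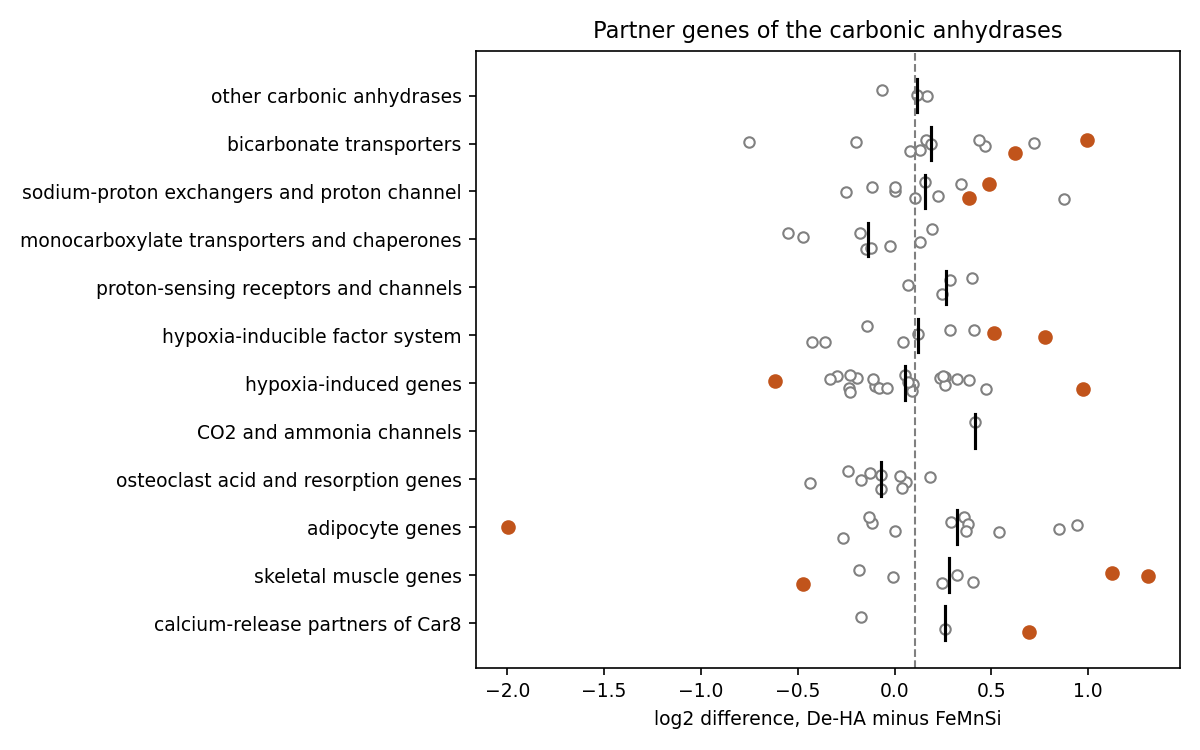
Log2 difference, De-HA minus FeMnSi, of every tested gene in the 12 partner lists; orange points were past the threshold, open points were not, black bars are list medians and the dashed line is the median of all genes (0.10). Hypoxia-induced genes spread around that line with 1 call on each side, and Fabp4 (-1.99) is the farthest point.

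The label of the cells was checked through 10 osteoblast markers, Runx2, Sp7, Alpl and Col1a1 among them, which were all well above background on all 6 arrays. All 10 were tested, and 4 were called higher and 1 lower in De-HA, against 6.46% and 4.29% of all genes. The same shares stand beside the marker counts that follow. The summed signal of the osteoblast markers, scaled to the mean 75th percentile, was 216820 to 248309 on De-HA and 180094 to 205519 on FeMnSi. Markers of cells in which carbonic anhydrases are prominent were read beside the members in the same way. Of 8 adipocyte markers 6 were detected on some array and Adipoq and Cidec on none. The sum was 196 to 212 on De-HA and 243 to 274 on FeMnSi. Among the 6 tested markers Fabp4 alone was lower on De-HA. Retn (0.85), Cfd (0.38), Cebpa (0.37), Plin1 (0.29) and Pparg (0.00086) were not lower, and none of these passed. Of 12 adipocyte genes tested (median 0.32), Fabp4 fell and 0 rose (3.98-fold, limma adjusted p = 0.00170, -1.97 within slide 1; -0.87 with normexp, still past). Of 8 osteoclast markers 4 were detected, without Acp5, Mmp9, Atp6v0d2 and Dcstamp, and the sum was 19173 to 21066 on De-HA and 21683 to 24509 on FeMnSi. Ctsk alone made 98.5% to 98.9% of it, and the rest was 247 to 294 on De-HA and 262 to 312 on FeMnSi, which overlap. Of 8 skeletal muscle markers 5 were detected, without Ckm, Mb and Myog; the sum was 590.4 to 926 on De-HA and 326 to 409.7 on FeMnSi. Of 8 muscle genes tested (median 0.28), Acta1 (1.31, limma adjusted p = 0.0451, 1.76 within slide 1) and Myod1 (1.12, limma adjusted p = 0.0350, 0.83 within slide 1; 0.70 with normexp, still past) rose. Acta1 made 42.9% to 75.4% of the muscle sum. Tnni2 fell by 0.47 (limma adjusted p = 0.0379), but gave -0.05 with normexp and did not pass there or with an intensity trend. Among erythroid markers Alas2 and Hbb-bs were not detected. Of 8 myeloid markers 7 were well above background on all 6 arrays, Ptprc, Csf1r and Adgre1 among them, and Tyrobp on none. Their sum was 2720 to 3021 on De-HA and 2157 to 2986 on FeMnSi, with 2 of 7 tested called higher and 2 lower. Itgam alone made 61.9% to 77.5% of this sum. The rest was 827 to 927 on De-HA and 673 to 821 on FeMnSi, which did not overlap. Of 5 endothelial markers Kdr and Pecam1 were detected on all 6 arrays and Cdh5 and Tek on none. The sum was 545 to 603 on De-HA and 431 to 444 on FeMnSi, with 1 of 2 tested called higher. Of 6 chondrocyte markers 5 were detected, without Matn1, and 1 of 3 tested was called higher. Their sums were 15847 to 17168 on De-HA and 10108 to 16238 on FeMnSi. Sox9 made 41.7% to 68.4% of these, and the rest was 8153 to 9597 on De-HA and 3198 to 9473 on FeMnSi. In bulk RNA fewer cells of a type and less RNA per cell cannot be told apart, and the part of these markers in the values of Car9, Car12 and Car4 was not tested.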

How the data were processed

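Agilent Feature Extraction 11.0.1.1 read the arrays, per the submitters' processing notes. The processed signals deposited by the authors are linear intensity values with background subtraction and detrending inside each array, per the file headers, and not scaled between arrays. The authors' deposited series matrix holds log2 values whose quartiles are the same in every column; how it was made is not given in the sources used here. It served as an alternative. Of 44397 spots, 1377 controls and those flagged as outliers were left out. Log2 signals were shifted by the array's 75th percentile (582 to 719.5), spots of a probe were averaged, and a probe was kept if 3 or more of the 6 arrays had it well above background. On each array 63.5% to 74.4% of probes were well above background and no spot was saturated; the number of arrays limits the precision. Names came through RefSeq accessions (GRCm38.p6), 27234 of 28684 matching, and the probe with the highest mean stood for a gene. limma 3.58.1 in R 4.3.3 (no trend) gave moderated statistics, with Benjamini-Hochberg adjustment over 15535 genes. On simulated data for this comparison, with 15535 genes, 70% of 2-fold and 92% of 4-fold changes were recovered. Members, lists and tests were chosen with earlier results of these data known. Named were all members, the other carbonic anhydrases, up to 3 called genes of each list by smallest p (2 where none was called) and the 5 genes most like Car9. Slc16a3, Hif1a, Hif1an, Egln3, the 8 uncalled hypoxia-induced genes, the uncalled adipocyte markers and the genes near Car12 lie outside this rule. They were picked with their values in view. A few genes are not reported here. Alternatives were other scalings, normexp, the matrix, filters, probe rules, the slide or the replicate number as a block, slide 1 alone, an intensity trend, and leaving out each array. The normexp fit used median spot signals, since the files hold no mean spot signal, and local backgrounds flagged as outliers were replaced by the array's median. Figures were drawn with matplotlib 3.10.9.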

Additional observations from a re-analysis of the deposited data

How the results depend on the processing

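Car9, Car12 and Car4 kept their direction under all 18 alternatives; Car9 was past the threshold in 18 of them, Car12 in 14 and Car4 in 9. With the slide as a block or on slide 1 alone, 1 member passed in each, and leaving out 1 array gave 1 to 3, with 1 without FeMnSi 3. Partner genes past the threshold, 13 in the fit reported, numbered 1 with the slide as a block. They numbered 0 on slide 1 alone by limma, a fit that holds 1 FeMnSi array. There were 2 without a filter on dim probes and 1 to 26 when 1 array was left out, 26 being without FeMnSi 1. All genes past the threshold numbered 519 without the filter, 180 with the slide as a block, 36 on slide 1 alone, where the lone FeMnSi array is assumed to vary like De-HA, and 227 to 4611 with 1 array left out; each array moved this count by over 1.5 times (leaving out De-HA 1, 2 or 3 gave 512, 374 or 235, and leaving out FeMnSi 1, 2 or 3 gave 4611, 524 or 227). The fit with the slide as a block gave the same differences as slide 1 alone, since the other slide held no De-HA array. Epas1 turned to -0.13 with the mean of its probes, which differ in sign. Deviations of same-numbered arrays from their group means correlated at 0.0070, -0.11 and 0.12, and those of differently numbered arrays at -0.25 to 0.23. With so few arrays, and FeMnSi 2 and 3 on another slide, these values cannot tell whether the replicate numbers pair the arrays. With a replicate block 693 genes, 2 members and 3 partner genes passed. The cause of these shifts was not tested. The lowest signal well above background on an array was 11.8 to 21.8. Car2 and the dim Car4 probe lay near it, and Car3 and Car8 below it.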
